A study of Mus musculus with 12 samples.

Results

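The genes described here are the small nucleolar RNAs (snoRNAs) other than U3 in the immune cell fraction of mouse liver. They were taken by name (gene IDs starting with Snord or Snora and a number, without the U3 genes), and a gene was kept if its value was above the minimum of the files in 3 or more of 11 libraries. Of 133 genes with such names, 131 passed, out of 40840 genes in the files and 17950 genes that passed the same filter. The 131 were 94 C/D box RNAs (Snord) and 37 H/ACA box RNAs (Snora). The members were thus selected on their TPM in any of the 11 libraries, and no difference between groups entered the choice. The 2 genes just outside it, Snora24 and Snora57, reached 1.51 TPM at most, and the 8 genes just inside it, which were above the minimum in exactly 3 libraries, reached 5.09 TPM at most with no more than 1 read in a library.

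The study asked how high-fat diet (HFD) feeding and loss of caspase-11, a protease that senses cytosolic bacterial lipopolysaccharide and is encoded by Casp4, change the immune cells of the fatty liver. Male mice were 8 to 10 weeks old at the start and were kept for 12 weeks on either HFD or a normal chow diet (NCD). WT mice were labelled C57BL/6 (C57BL/6J in the study's methods), and Casp11-/- mice were of the strain B6.129S4(D2)-Casp4tm1Yuan/J, in which the gene is disrupted in every cell rather than in macrophages alone. Crossing genotype with diet gave 4 groups of 3 libraries, and since the labels number the libraries without tying them to separate mice, p-values describe the spread between these libraries. Cells were enriched on 33% Percoll, and random-primed stranded total RNA libraries were read as single ends of 75 bases.

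SnoRNAs guide the maturation of ribosomal RNA in the nucleolus. C/D box RNAs carry fibrillarin and direct 2′-O-methylation, H/ACA box RNAs carry dyskerin and direct pseudouridylation, and a few members of both classes are needed for cleavage of the precursor rRNA instead. Most mammalian snoRNAs are cut out of introns of host genes, many of which encode ribosomal proteins or long non-coding RNAs.

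The sequences of 4 C/D box and 3 H/ACA box RNAs are shown because they set side by side what was and was not read in these libraries. Snord17 and Snord15b are long C/D box RNAs with reads in every library, Snord33 and Snord14d are short ones with no read in any library, and Snora73a, Snora73b and Snora23 held most of the reads of all members. Coordinates and sequences are from GENCODE vM21 on GRCm38 (mm10), 5′ to 3′ on the RNA's own strand. Capitals mark box C (searched as TGATGA in the first 20 bases) and box D (CTGA in the last 20 bases) in the C/D box RNAs, and the ACA near the 3′ end in the H/ACA box RNAs.
Snord17, chr2:144265979-144266216, minus strand: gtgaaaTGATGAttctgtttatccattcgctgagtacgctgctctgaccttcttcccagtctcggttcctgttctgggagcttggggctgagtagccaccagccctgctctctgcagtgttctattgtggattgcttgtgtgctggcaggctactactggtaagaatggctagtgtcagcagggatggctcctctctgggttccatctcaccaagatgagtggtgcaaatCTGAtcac
Snord15b, chr7:99479563-99479707, minus strand: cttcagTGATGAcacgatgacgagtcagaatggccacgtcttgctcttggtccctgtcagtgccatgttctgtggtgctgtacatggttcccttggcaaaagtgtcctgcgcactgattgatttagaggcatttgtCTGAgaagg
Snord33, chr7:45126864-45126947, minus strand: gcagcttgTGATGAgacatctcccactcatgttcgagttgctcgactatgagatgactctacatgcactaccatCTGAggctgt
Snord14d, chr9:40803995-40804080, plus strand: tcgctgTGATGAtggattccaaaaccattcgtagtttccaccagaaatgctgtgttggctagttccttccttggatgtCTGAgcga
Snora73a, chr4:132352775-132352979, minus strand: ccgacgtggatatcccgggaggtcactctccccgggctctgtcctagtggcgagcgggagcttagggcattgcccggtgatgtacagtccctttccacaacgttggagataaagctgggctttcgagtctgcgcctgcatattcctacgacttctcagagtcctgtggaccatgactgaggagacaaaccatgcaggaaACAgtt
Snora73b, chr4:132352322-132352526, minus strand: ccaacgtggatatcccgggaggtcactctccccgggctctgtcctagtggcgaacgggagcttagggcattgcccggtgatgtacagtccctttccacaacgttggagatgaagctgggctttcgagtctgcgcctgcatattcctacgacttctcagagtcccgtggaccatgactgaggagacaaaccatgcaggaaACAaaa
Snora23, chr7:110046364-110046547, plus strand: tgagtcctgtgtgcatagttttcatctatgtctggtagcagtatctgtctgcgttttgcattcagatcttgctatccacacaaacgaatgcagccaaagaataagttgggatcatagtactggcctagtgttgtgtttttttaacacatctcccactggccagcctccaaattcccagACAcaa

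Both boxes were found in 62 of the 91 C/D box members with a GENCODE sequence (68.1%), against 0.101% of 6947 other transcripts of 50 to 250 bases. Box D alone was found in 89 of the 91 (97.8%) and box C in its exact letters in 64 (70.3%). The ACA was found near the 3′ end in 33 of 35 H/ACA box members (94.3%), against 6.16% of those other transcripts. Snora73a and Snora73b were identical at 198 of 205 aligned positions (96.6%), so the split of reads between them is uncertain, whereas Snord15a and Snord15b were identical at 107 of 162. The lengths behind the deposited values are those of another annotation and differ for some members, for example 221 nt for Snord17 against the 238 bases printed above.

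The files give TPM, reads divided by gene length and scaled to a common total, with every value below 1.01 raised to that minimum. Within each of the 11 libraries, 99.7% to 100% of the low values fell on the steps of a whole number of reads plus 0.5, divided by length, within 0.05 of a read. Taking the step as 1 read, the 11 libraries held 1781256 to 11813354 reads on listed genes, and RPM below is the reads of a gene scaled to a common total of these reads. WT-NCD replicate 3 showed none: over 3551 small RNAs of known length, its values were 1 constant divided by length, within 0.0053%. The lengths of all 39676 genes above the minimum in it were derived from its own values. Only those small RNAs therefore test the constant directly. WT-NCD replicate 3 is left out of the results below, which leaves 2 libraries in WT-NCD, 5 on NCD and 6 on HFD.

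The other 11 libraries differed in composition along the diet. The 5 U3 genes held 1.24% to 4.84% of TPM on NCD and 25.8% to 58.5% on HFD, and protein-coding genes 22.3% to 42.4% and 15.7% to 25.2%, so the TPM of every other gene depends on the share that U3 took. The samples are labelled hepatic macrophages. All 10 macrophage and Kupffer cell markers examined were above the minimum, and their sum was 132 to 238 TPM (NCD) and 320 to 892 TPM (HFD) in WT and 77.1 to 590 TPM (NCD) and 370 to 491 TPM (HFD) in Casp11-/-, but the 5 hepatocyte markers summed to 5941 to 22203 TPM, more than the macrophage markers in every library. The 5 B cell markers summed to 408 to 1617 TPM in the NCD libraries and 128 to 286 in the HFD libraries, and the 5 erythroid markers to 864 to 18016 and 278 to 763. The 5 T cell markers summed to 73.6 to 358 and 42.5 to 129 TPM, the 5 NK cell markers to 155 to 349 and 44.9 to 82.2, the 5 neutrophil markers to 225 to 707 and 76.7 to 2910.3, and the 5 sinusoidal endothelial markers to 85.9 to 387 and 174 to 944. The 5 stellate cell markers summed to at most 22.4 TPM on NCD and 35.6 on HFD, with Pdgfrb at the minimum in every library. In bulk RNA, fewer cells of a type and less RNA per cell cannot be told apart, and the part of cell composition in the results below was not tested. Casp4 was at 5.60 to 15.6 TPM in the 5 WT libraries, and 2 of the 6 libraries labelled Casp11-/- (15.2 and 8.68 TPM) were inside that range. The data of the second of these, Casp11-/- HFD replicate 2, carry a heading whose genotype code differs from that of the others, so its genotype is given as labelled.

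Most snoRNA genes had no read at all. Of the 131 members, 102 had none in any of the 11 libraries (88 C/D box RNAs of 28 to 99 nt and 14 H/ACA box RNAs of 56 to 126 nt). Another 16 had a few reads (2 C/D box RNAs with 37 reads and 14 H/ACA box RNAs with 278 reads in all), and 13 had 10 or more reads in at least 3 libraries (4 C/D box RNAs with 15882 reads and 9 H/ACA box RNAs with 93124 reads). A value at the minimum allowed no read for any of the 102 except Snora47, where it allowed 1 read in 1 library. No read over the reads of all 11 libraries allows up to 0.0415 RPM for a gene, and no read in a single library up to 0.254 to 1.68 RPM. These limits and the intervals given below cover counting error only.

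Whether a member was read went with its length. None of the 92 members shorter than 100 nt had a read, and none of the 1933 other genes of that length had one either. From 100 to 124 nt, 9 of 18 members had reads (105 reads), against 15 of 1097 other genes (1.37%). From 125 to 149 nt, 13 of 14 members (92.9%) had reads, against 87 of 900 other genes (9.67%), and from 150 to 249 nt all 7 members did, against 65 of 480 (13.5%). The shortest member with a read was Snora36b at 113 nt. Of the 34 members of that length or longer, 29 had reads. All 6 C/D box members of 100 nt or more had reads, so the division between C/D and H/ACA box RNAs in these libraries was also a division by length.

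**Figure D1:**
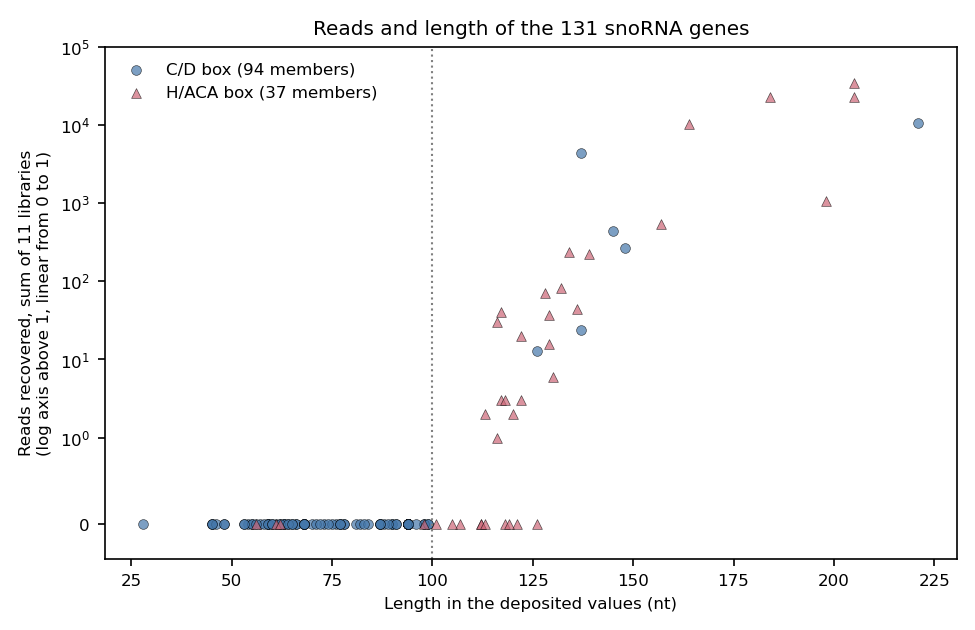
Each point is 1 of the 131 snoRNA genes, with its length in nucleotides on the x axis and its reads summed over the 11 libraries on the y axis (log scale above 1). All 92 genes left of the dotted line at 100 nt are at 0 reads, and the 13 genes with 10 or more reads in at least 3 libraries are 132 to 221 nt long.

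The deposited TPM of the 102 genes without reads were nevertheless above the minimum in many libraries. Each was the value of 0.5 read divided by the gene's length, to within 0.00695%, so that these values carry the scale of the library and the length of the gene and no signal of the RNA. Snord98, listed at 28 nt, had the highest of them, 7.03 TPM in Casp11-/- HFD replicate 1. Snord47 (65 nt) reached 3.03 TPM, Snord33 (82 nt) 2.40 TPM and Snord14d (87 nt) 2.26 TPM, all in that same library. The number of these genes above the minimum was 16 and 7 in the WT libraries on NCD and 102, 95 and 69 in those on HFD, and it was 36, 27 and 102 (NCD) and 102, 56 and 1 (HFD) in those labelled Casp11-/-. The 3 libraries with all 102 above the minimum had 2662690, 6263542 and 1781256 reads, and the library with 1 had 10695670.

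**Figure D2:**
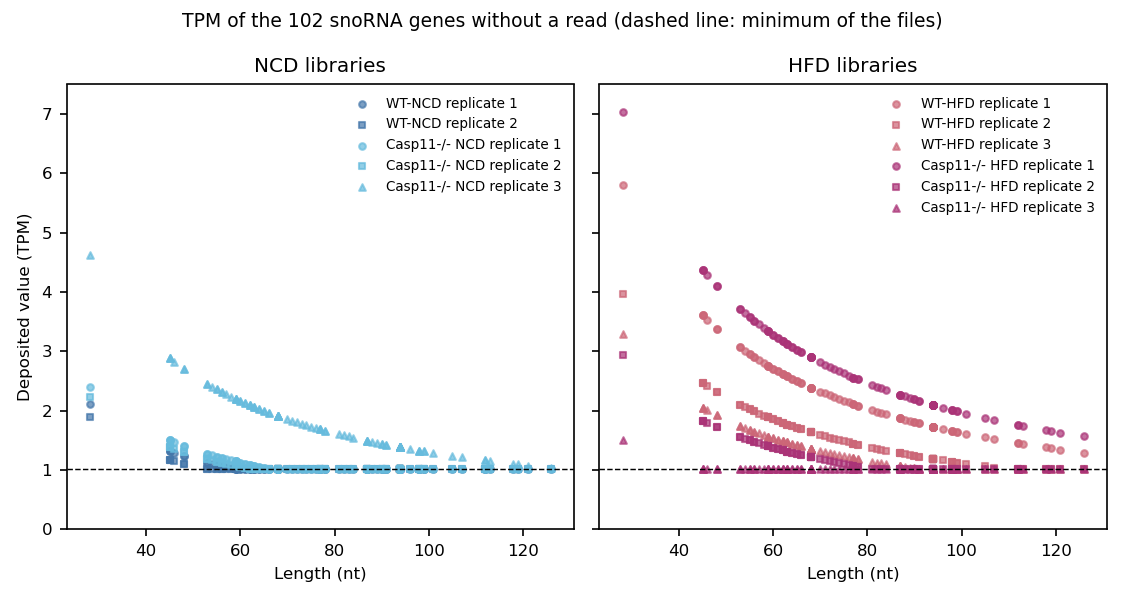
The deposited TPM of the 102 snoRNA genes without a read is plotted against gene length in nucleotides, for the 5 NCD libraries (left) and the 6 HFD libraries (right), with the minimum of 1.01 TPM as a dashed line. Within a library the points above the minimum lie on 1 curve of a constant divided by length, and the others lie on the dashed line. In Casp11-/- HFD replicate 1 the curve runs from 7.03 TPM at 28 nt down to 1.56 TPM at 126 nt.

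Several well known groups were among the genes without reads. The 4 snoRNAs of the ribosomal protein gene Rpl13a (Snord32a, Snord33, Snord34 and Snord35a, 66 to 89 nt), studied elsewhere for their response to lipotoxic stress, had no read, although Rpl13a itself had a median of 181 TPM. The same held for the 18 members from imprinted clusters (17 Snord116 copies and Snord64) and for Snord47, the only member hosted by the long non-coding RNA Gas5. Among the 9 members listed here under precursor rRNA cleavage, Snora73a and Snora73b (both U17) had ample reads, and Snord118 (U8) and Snord22 (U22) had 24 and 13 reads in all. Snord13 (U13) and Snord14a, Snord14c, Snord14d and Snord14e (U14) had none. In log2(TPM + 1), none of the 4 cleavage RNAs with reads was called for diet in the test over both genotypes described below.

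A small number of RNAs made up the reads. Snora73b held 31.9% of all member reads, Snora23 21.1%, Snora73a 20.7%, Snord17 9.85%, Snora81 9.52% and Snord94 4.04%, and each other member held less than 1%. Within the C/D box class, Snord17 held 67.6% and Snord94 27.7% of reads. H/ACA box members had 3.35 to 11.2 times the reads of C/D box members in a library. H/ACA box RNAs took 636 to 2461 RPM on NCD (1222 ± 774, SD, n = 5) and 1105 to 2792 on HFD (1810 ± 569, SD, n = 6), and C/D box RNAs 87.0 to 445 (230.0 ± 142) and 134 to 391 (255 ± 95.1), so that both classes overlapped between diets.

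Snora73b and Snora73a, the U17 RNAs of the cleavage reactions that form the 18S rRNA, had the narrowest ranges of the 13 genes with ample reads. Snora73b measured 1938 and 1799 TPM in the WT libraries on NCD and 2996, 3068 and 2348 TPM in those on HFD, and the libraries labelled Casp11-/- had 1512, 3787 and 3636 TPM on NCD and 2414, 3380.5 and 1593 TPM on HFD. Snora73a measured 1121 and 1067 TPM in the WT libraries on NCD and 2013, 2634 and 1807 TPM in those on HFD, and the libraries labelled Casp11-/- had 974, 2094 and 2049 TPM on NCD and 2213, 2175 and 1025 TPM on HFD. For both, the WT-HFD libraries lay above the WT-NCD libraries, while the Casp11-/- groups overlapped. With 2 NCD libraries in WT and 3 in Casp11-/-, full separation is reached more easily in WT. In RPM, Snora73a and Snora73b also had HFD wholly above NCD within WT, as did 18% of 13526 genes with 10 or more reads in 3 libraries. Within Casp11-/- 6.17% of those genes did. The shares in TPM are not given. The highest library was 2.51 times the lowest for Snora73b and 2.70 times for Snora73a. Snora73b had 1.55 to 1.81 reads for each read of Snora73a on NCD and 1.09 to 1.56 on HFD, with the reservation that reads of these near-identical genes can be assigned to either.

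Snora23 and Snora81, guides for pseudouridines of the 28S rRNA, were the other abundant H/ACA box RNAs. Snora23 measured 1382 and 925 TPM in the WT libraries on NCD and 965, 2159 and 2544 TPM in those on HFD, and the libraries labelled Casp11-/- had 1155, 3646 and 2729 TPM on NCD and 1514, 1707 and 1342 TPM on HFD. Snora81 measured 479 and 249 TPM in the WT libraries on NCD and 455, 984 and 1269 TPM in those on HFD, and the libraries labelled Casp11-/- had 352, 978 and 3967 TPM on NCD and 794, 457 and 1171 TPM on HFD. Diet groups overlapped for both genes in each genotype. The spread inside Casp11-/- NCD was wide, with replicate 3 at the highest level of Snora81 of all libraries and replicate 1 low for both genes.

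Among the C/D box RNAs, Snord17 is a guide for methylation of the 28S rRNA and Snord94 for methylation of the U6 spliceosomal RNA. Snord17 measured 1005 and 547 TPM in the WT libraries on NCD and 269.7, 519 and 625 TPM in those on HFD, and the libraries labelled Casp11-/- had 432, 633 and 2729 TPM on NCD and 411, 311 and 575 TPM on HFD. Snord94 measured 334 and 139 TPM in the WT libraries on NCD and 383, 859 and 749 TPM in those on HFD, and the libraries labelled Casp11-/- had 87.0, 544 and 624 TPM on NCD and 872, 535 and 519.8 TPM on HFD. The WT-HFD libraries were all above the WT-NCD libraries for Snord94, and the other comparisons of diet overlapped for the pair. Snord94 separated in that way within WT in RPM as well, as did 18% of 13526 genes with 10 or more reads in 3 libraries. The share in TPM is not given. Snord15a and Snord15b, which also act on the 28S rRNA and share the host gene Rps3, were 3.18 to 103 TPM and 14.4 to 128 TPM. Both were lowest in Casp11-/- NCD replicate 1 and highest in Casp11-/- NCD replicate 3, and the ratio of highest to lowest reached 32.2 for Snord15a, the widest range of the 13 genes with ample reads.

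The remaining H/ACA box RNAs with ample reads were at lower levels. Snora74a (U19) ranged from 22.1 to 289 TPM and Snora78 from 25.9 to 115 TPM, both lowest in WT-HFD replicate 1 and highest in Casp11-/- NCD replicate 3. Snora52 ranged from 8.54 to 66.8 TPM and Snora43 from 9.20 to 92.3 TPM, both lowest in Casp11-/- NCD replicate 1 and again highest in Casp11-/- NCD replicate 3. That library was the highest of the 11 for 8 of the 13 genes, so the mean of its group rested on it for those genes.

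Snora17 was the scarcest of the 13 genes. It lies at chr2:26639190-26639321 on the minus strand, next to Snora43 (chr2:26637847-26637985 in RefSeq). Snora17 measured 1.35 and 5.20 TPM in the WT libraries on NCD and 8.61, 32.8 and 9.07 TPM in those on HFD, and the libraries labelled Casp11-/- had 7.65, 3.31 and 2.95 TPM on NCD and 40.3, 16.8 and 6.08 TPM on HFD. These values rest on 1 and 6 reads (NCD) and 3, 19 and 6 reads (HFD) in WT, and on 7, 3 and 1 reads (NCD) and 13, 13 and 9 reads (HFD) in Casp11-/-. In TPM, 1 NCD library (Casp11-/- NCD replicate 1) exceeded the lowest HFD library, whereas in RPM the diets did not overlap.

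**Figure D3:**
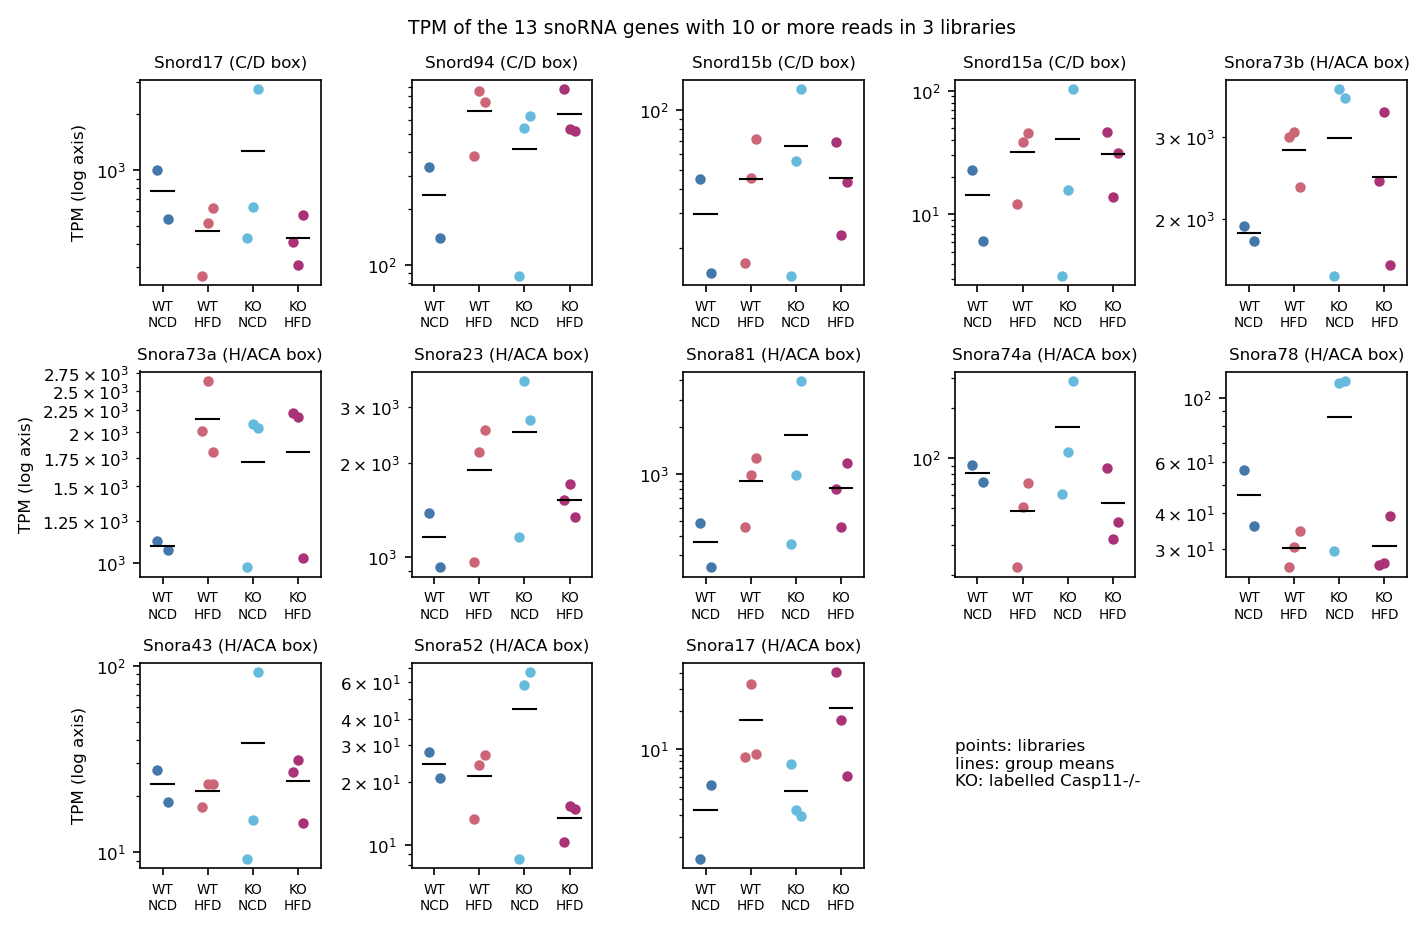
TPM (log axis) of the 13 snoRNA genes with 10 or more reads in at least 3 libraries, 1 panel for each gene; points are the 11 libraries, lines are group means, and KO stands for the libraries labelled Casp11-/-. The third Casp11-/- NCD library is the highest point in 8 panels, and only the Snora17 panel has a higher mean on HFD with an adjusted p under 0.05.

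The first comparison asked whether snoRNAs differed between HFD and NCD over both genotypes. Only 2 of 131 members were called in log2(TPM + 1) by limma with Benjamini-Hochberg adjusted p under 0.05, both H/ACA box RNAs and both higher on HFD, and no C/D box RNA was called. Of all 17950 genes tested, 1.07% were called higher and 17.3% lower. Of the 131 members, 102 had no read and entered with the value that stands for none, and 0 members were called lower. At an unadjusted p under 0.05 there were 8 members. This count and those at that level below stand without the share of all genes, so they do not set the members apart. Both called genes were named after their values were seen, since neither separated the diets fully within each genotype in TPM. Snora17 was higher on HFD with a log2 fold change of 1.84 (SE 0.46, adjusted p = 0.0143), and Snora44 with one of 1.60 (SE 0.41, adjusted p = 0.0152).

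Both calls rest on few reads. Snora44, hosted by the non-coding RNA gene Snhg12, measured 2.53 and 1.35 TPM in the WT libraries on NCD and 9.72, 16.1 and 13.4 TPM in those on HFD, and the libraries labelled Casp11-/- had 4.03, 1.60 and 5.54 TPM on NCD and 18.5, 6.33 and 3.25 TPM on HFD, from 1 to 8 reads in a library. In TPM the diets separated in WT and overlapped in Casp11-/-, whereas in RPM all 6 HFD libraries (0.374 to 2.82) lay above all 5 NCD libraries (0.0846 to 0.321). The nearest libraries in RPM had 3 reads (Casp11-/- NCD replicate 1) and 4 reads (Casp11-/- HFD replicate 3). Such separation was found for 2.89% of 13526 genes with 10 or more reads in 3 libraries, a set without Snora44. Summed over libraries, Snora44 had 9 reads on NCD, or 0.205 RPM (95% exact Poisson interval 0.0935 to 0.388), and 32 reads on HFD, or 1.13 RPM (0.774 to 1.60). Snora17 had 18 reads on NCD, or 0.409 RPM (0.242 to 0.646), and 63 reads on HFD, or 2.23 RPM (1.71 to 2.85). These sums ignore the spread between libraries. The limma call of Snora17 ended without WT-NCD replicate 1 (adjusted p = 0.0844), WT-HFD replicate 2 (0.0597), Casp11-/- NCD replicate 3 (0.0526) or Casp11-/- HFD replicate 1 (0.0677). That of Snora44 ended without WT-NCD replicate 2 (adjusted p = 0.119), WT-HFD replicate 2 (0.0505) or Casp11-/- HFD replicate 1 (0.069).

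The abundant members did not pass the test, and the intervals of their differences were wide. Snord94 had a log2 fold change of 1.27 (95% interval 0.27 to 2.27, adjusted p = 0.0649) and Snora73a 0.52 (−0.41 to 1.45, adjusted p = 0.375). Snora73b had 0.18 (−0.80 to 1.15), Snora23 0.02 (−0.94 to 0.99) and Snora81 0.35 (−0.74 to 1.44). Snora74a had −1.10 (−1.98 to −0.23, adjusted p = 0.0655), Snord17 −0.93 (−1.90 to 0.05) and Snora78 −0.90 (−1.69 to −0.12, adjusted p = 0.0879). Missing the threshold with such intervals does not show that the levels were equal. Snord118 (U8), which is needed for maturation of the 5.8S and 28S rRNAs, had 5 reads on NCD and 19 on HFD and a log2 fold change of 1.07 (adjusted p = 0.0671).

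Recovered reads per protein-coding read were fitted with limma voom over 13526 genes with 10 or more reads in 3 libraries, of which 7.65% were called higher on HFD. Of the 13 members tested, 3 were called, all higher. Snora17 had a log2 fold change of 2.50 (SE 0.78, adjusted p = 0.0448), Snord94 1.95 (SE 0.57, adjusted p = 0.0369) and Snora73a 1.21 (SE 0.39, adjusted p = 0.0491). The same 3 genes were called when reads were taken per all reads or per reads outside U3. Snora73b, which shares nearly all of its sequence with Snora73a, had 0.86 (SE 0.38, adjusted p = 0.122). In RPM, Snora17 alone of the 13 had all 6 HFD libraries (0.841 to 7.30) above all 5 NCD libraries (0.102 to 0.749). Over all 13526 genes, 2.89% had HFD wholly above NCD.

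**Figure D4:**
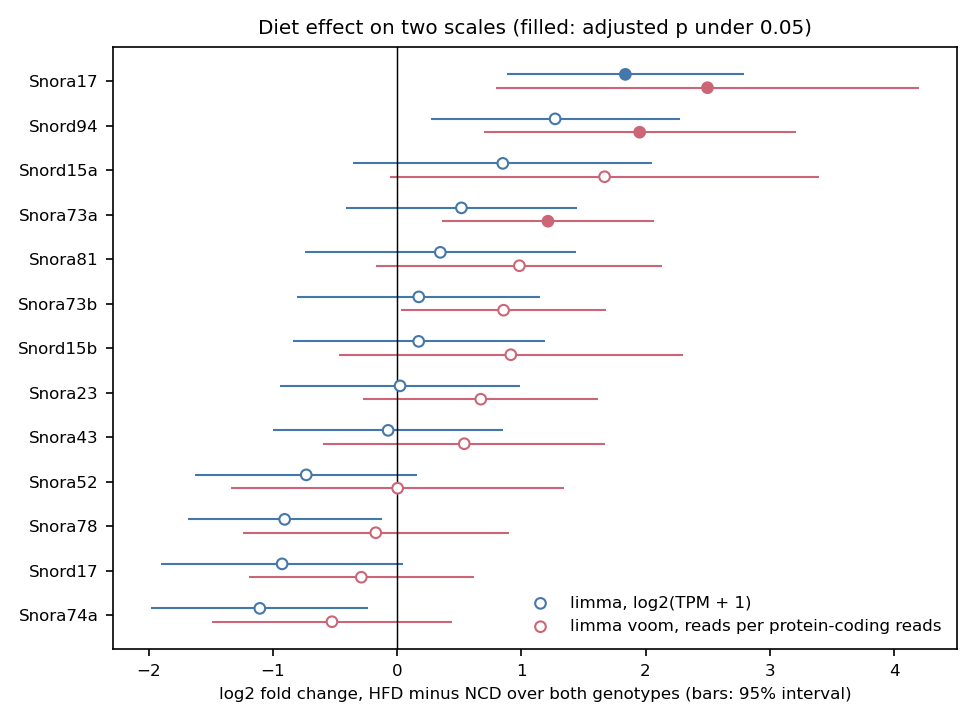
Log2 fold change of HFD against NCD over both genotypes, with 95% intervals, for the 13 snoRNA genes with ample reads, from limma on log2(TPM + 1) (blue) and from limma voom on reads per protein-coding read (red); filled points have an adjusted p under 0.05. Snora17 is filled on both scales (1.84 and 2.50), Snord94 and Snora73a on the read scale alone, and every red point lies to the right of its blue one.

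The scaling of TPM changed how many snoRNA genes passed, mostly among genes that had no read. When the protein-coding genes of each library were rescaled to a common total, 110 of 131 members were called higher on HFD (90 C/D box and 20 H/ACA box RNAs), against 26.4% of all genes. All 102 genes without a read were among the 110, with log2 fold changes of 0.43 to 0.97 and an adjusted p of 0.0437 for each. When the U3 genes were removed and the rest rescaled, 78 members were called higher, 63 of them without a read, against 16.6% of all genes. On the TPM as deposited none of the 102 was called, with log2 fold changes of 0.09 to 0.46 and a lowest adjusted p of 0.188.

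The calls on genes without reads were calls on the value that stands for no read. For a gene of 100 nt it was 0.528 to 1.30 on NCD and 0.422 to 1.97 on HFD on the deposited scale, and 0.386 to 0.848 and 0.509 to 2.83 after rescaling by protein-coding genes. The 102 genes share this 1 number in each library and are not separate measurements. Among genes with reads, the protein-coding scaling called Snora17, Snora73a, Snord94, Snora16a, Snora36b, Snora44, Snora62 and Snord118. Of these, Snora36b had 2 reads in all, in 1 library, and Snora62 had 6 reads in 4 libraries. In the other libraries their values were also the one that stands for no read or the minimum. When the 0.5-read offset was removed and genes with 1 or more reads in 3 libraries were fitted, 2 of 25 members tested were called higher, again Snora17 and Snora44, against 1.78% of all 14084 genes in that fit.

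**Figure D5:**
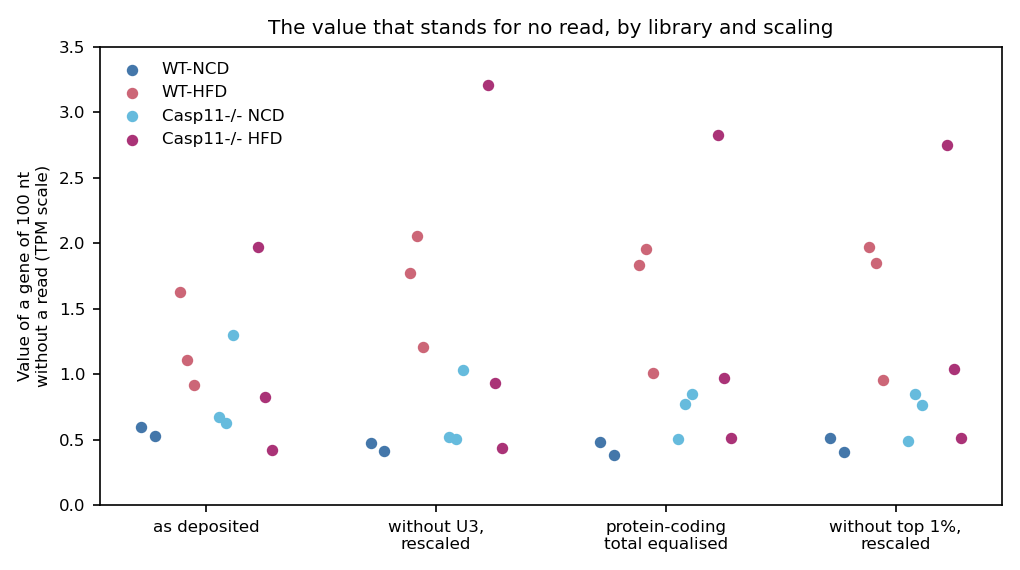
The value that a gene of 100 nt without a read takes in each of the 11 libraries (y axis, TPM scale) as deposited and after each of 3 rescalings. Diets overlap on every scale, with 0.422 to 1.97 on HFD as deposited, and the highest point, 3.21, is Casp11-/- HFD replicate 1 after removal of U3.

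The diet comparison was then made within each genotype. In WT, 1 of 131 members was called higher, Snora44 with a log2 fold change of 2.26 (SE 0.61, adjusted p = 0.0488), against 0.134% of all genes called higher and 2.04% called lower. The call ended in 8 of the 11 fits that left out 1 library, among them those without any of the 5 WT libraries. Snora17 had 1.96 (SE 0.69, adjusted p = 0.185) and Snord94 1.54 (SE 0.72, adjusted p = 0.317) in WT. In Casp11-/- no member was called, against 0.117% of all genes called higher and 0.986% lower, and 5 members were at an unadjusted p under 0.05. Snora17 had 1.71 (SE 0.62, adjusted p = 0.127) and Snora78 −1.24 (SE 0.51, adjusted p = 0.149) there. Voom on reads per protein-coding read called 0 of 13 members within WT (5 at an unadjusted p under 0.05) and 0 of 13 within Casp11-/- (0 at that level). Snora44 was not among the 13. In RPM, the WT-HFD libraries lay wholly above the WT-NCD libraries for Snora17, Snora73a, Snora73b, Snora81 and Snord94, and in Casp11-/- this was so for Snora17 alone. Those are 5 and 1 of 13 members, against 18% and 6.17% of all 13526 genes. In TPM, Snora74a and Snora78 lay wholly below in WT-HFD, whereas in RPM the diets overlapped in WT for both. The share of all genes lying wholly below in TPM is not given, so this separation does not set the 2 genes apart. The difference between the genotypes itself was tested by the interaction.

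The genotypes were compared within each diet, and the difference of their diet effects was tested. By limma with Benjamini-Hochberg adjustment no member was called for genotype on NCD (0.0557% of all genes called, 3 members at an unadjusted p under 0.05), for genotype on HFD (0% of all genes called, 0 members at that level) or for the interaction (0.00557% of all genes called, 0 members at that level). Voom on reads per protein-coding read also called 0 of 13 members in the 3 comparisons, with 1, 0 and 0 members at an unadjusted p under 0.05. On NCD the members of smallest p were Snora21, with a log2 fold change of 1.89 (SE 0.67, adjusted p = 0.786), and Snora70, with 1.62 (SE 0.68). On HFD they were Snord22, with −0.89 (SE 0.48), and Snora3, with −0.44 (SE 0.27). The interaction of Snora70 was −1.74 (SE 0.91) and that of Snora81 −1.82 (SE 1.06), where a negative value means a lower diet effect in Casp11-/-. With 2 or 3 libraries a group such errors are too large to show whether the genotypes responded alike.

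The host genes gave a second view of the loci. A GENCODE gene on the same strand contained 116 of the 126 members with a GENCODE entry, in 75 host genes, with 68 members wholly intronic and 48 overlapping an annotated exon. The 57 hosts of the members without reads had a median of mean levels of 23.6 TPM and reached 948 TPM, and 37 of them were above 10 TPM. Those hosts were thus read while no read was assigned to the snoRNA gene. The abundant snoRNAs exceeded their hosts per length. The median TPM of Snora73a and Snora73b was 139 and 166 times that of Snhg3, a non-coding host, and that of Snora23 was 62.4 times that of Ipo7, an importin gene. Snora81 was at 17.9 times Eif4a2, a translation initiation helicase gene, and Snord17 at 7.84 times Snx5, a sorting nexin gene. Snord15a and Snord15b were below Rps3, at 0.217 and 0.423 times its level.

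No host was called in the direction of the called snoRNAs. Over both genotypes, limma called 39 of 71 hosts tested lower on HFD and none higher, against 17.3% and 1.07% of all genes. Their median log2 fold change was −1.12, where that of all genes was −0.39. Voom on reads per protein-coding read called 24 of 69 hosts lower and none higher, with a median of −0.53, against 1491 of 13526 genes called lower and a median of −0.18 over all genes. Rpl13a fell by 1.61 on the log2 scale (adjusted p = 0.00815), Rplp2, the host of Snora52, by 1.48 (adjusted p = 0.0122) and Rps3 by 1.25 (adjusted p = 0.0254). Snhg3 had −0.80 (adjusted p = 0.139), Snhg12 −0.82 (adjusted p = 0.102) and Ipo7 −0.19 (adjusted p = 0.662). The called increase of Snora44 thus stood beside a host that was not called.

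The proteins that bind snoRNAs were examined as a list taken from general knowledge. Of the 4 C/D box core proteins tested, Nop56 fell by 1.24 on the log2 scale on HFD (adjusted p = 0.0273) and fibrillarin (Fbl), the methyltransferase, by 1.12 (adjusted p = 0.0370), and Nop58 and Snu13 were not called. Nop56 was at 4.5 to 14.2 TPM on NCD and 1.9 to 4.5 TPM on HFD. None of the 4 H/ACA box core proteins, among them the pseudouridine synthase dyskerin (Dkc1), was called. Of 13 assembly and transport factors, 4 fell, namely Tcof1 (treacle), which couples rRNA transcription to snoRNP action, the helicases Ruvbl1 and Ruvbl2, and the H/ACA assembly factor Shq1. Limma called 17.3% of all genes lower in the same comparison. Voom on reads per protein-coding read called Nop56, Shq1 and Tcof1 lower and not Fbl, Ruvbl1 or Ruvbl2. That was 1 of 4, 0 of 4 and 2 of 13 in the 3 lists, with medians of −0.43, −0.11 and −0.41. The number of all genes called lower by voom, and their median, are given with the hosts above. The medians of the 3 lists were −1.04, −0.61 and −0.73 against −0.39 for all genes on the TPM scale.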

How the data were processed

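The 12 libraries held total RNA of liver immune cells. Per the labels and methods, the authors made random-primed stranded libraries, removed ribosomal cDNA, aligned single-end reads to mm10 (GRCm38.p6) with STAR and computed TPM in Qlucore. The deposited score values are these TPM, made by the authors with a minimum of 1.01 and, as the steps of the values show, with 0.5 read added to each gene before scaling by length. Numbers of reads were recovered from these steps on the assumption that a step is 1 read. Rows without a gene name (6) and genes without a recoverable length (1164) had no reads assigned. The recovered total per library, 1781256 to 11813354, sets the counting error.

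The main test was limma (version 3.58.1, R 4.3.3) on log2(TPM + 1), with the spread shared by the 4 groups and following the mean, on the 17950 genes above the minimum in 3 or more of the 11 libraries without WT-NCD replicate 3. Tests were two-sided, and p-values were adjusted by Benjamini-Hochberg over all genes tested. Low genes changed by more than their fold change on this scale shows. Genes with 10 or more reads in 3 libraries were also fitted with limma voom, with values at the minimum taken at the middle of what the minimum allowed. Python 3.11.15 was used for the remaining steps (matplotlib 3.10.9, SciPy 1.17.1, numpy 2.4.6, pandas 2.3.3). Hosts and sequences came from GENCODE vM21, and lengths were checked against RefSeq on GRCm38.p6. Tested on simulated data, the pooled diet comparison recovered 95% of 200 changed genes among 17950, with 10 false calls. Recovery was 86.6%, 98.5% and 100% for changes of 2, 4 and 6 log2 units. The simulated noise was normal and independent between genes, without the minimum or steps of reads. No change under 2 log2 units was simulated, so the recovery of smaller differences or of genes with few reads was not tested.

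The members and lists were chosen with earlier results of these data known. Named were the 6 members of highest mean in each class, called members whose groups did not overlap, the 2 members of smallest p where none was called, the members of the lists and their hosts. Snora17, Snora43, Snora52, Snora16a, Snora36b, Snora62 and, over both genotypes, Snora44 were named after their values were seen, as were members just inside and outside the filter.

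Alternatives were all 12 libraries, other filters and pseudocounts (0.1 and 0.01), a spread from the 2 groups compared, a spread without trend, a block by replicate number, each library left out, and 3 rescalings. The fits on reads were added after the data were seen. Samples with the same replicate number did not deviate together (r from −0.33 to 0.47 over 15 pairs, against −0.57 to 0.47 over 30 pairs of different numbers), so the numbers were not taken to pair the samples.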

Additional observations from a re-analysis of the deposited data

How the results depend on the processing

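The counts of members called over both genotypes (2) and within WT (1) changed with the processing. With all 12 libraries, or with all genes tested that were above the minimum in at least 1 library, both counts were 0. With genes above the minimum in every library (17 members tested) they were 5 (4 higher, and Snora74a lower) and 1, with 37.7% of all 10145 genes called over both genotypes, and 1 member was called within Casp11-/-. With the U3 genes removed they were 78 and 3, with 1 within Casp11-/-, and with protein-coding genes rescaled 110 and 1. Within WT the count was 0 with a spread that had no trend. It was also 0 in each of the 3 voom fits. Snora44 had too few reads to be tested there, so these fits do not bear on its call. In the limma fit with the read offset removed, Snora44 was still called within WT (log2 fold change 2.41, adjusted p = 0.0224). Leaving out 1 library at a time gave 0 to 4 members over both genotypes, where it was 1 without WT-NCD replicate 1 or 2, 0 without WT-HFD replicate 2 or Casp11-/- HFD replicate 1 and 4 without WT-HFD replicate 3 or Casp11-/- NCD replicate 2. Within WT the range was 0 to 1. A fit without a WT-NCD library leaves that group with 1 library, which is assumed to vary like the others. The counts for genotype on NCD, genotype on HFD and the interaction were 0 in every fit run. The cause of these changes was not tested, apart from the genes without reads under the rescalings. The share of all genes is not given for the fits that left out 1 library or for the counts within a genotype here. Those counts cannot be set against the number of all genes called in the same fit.

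A block by replicate number, which the check of the pairing did not justify, gave 6 members over both genotypes and 2 within WT. Of the 6, Snora74a, Snora78 and Snord17 were lower on HFD, and 37.4% of all genes were called in that fit.

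Direction over both genotypes was followed for the 13 genes with ample reads and for Snora44, Snora21, Snora70 and Snord118. The log2 fold change reversed under some settings for 8 of these, none of them called in the report's fit. The genes without reads were followed by their median alone, and other members with few reads were not followed. Snora23 was −0.0296 under the block and −0.22 to 0.24 with 1 library left out, and Snord15b −0.0244 under the block, −0.12 with all 12 libraries and −0.24 to 0.55 with 1 left out. Snora43 was 0.63 without U3, 0.57 with protein-coding genes rescaled, 0.54 without the 1% of genes of highest mean, 0.46, 0.54 and 0.60 in the fits on reads (per all reads, per protein-coding reads and per reads outside U3) and −0.39 to 0.41 with 1 library left out. Snora21, −0.40 in the report's fit, was 0.21, 0.14 and 0.12 under the same 3 rescalings and −0.90 to 0.0938 with 1 left out. Snora52 was 0.0047 and 0.038 per protein-coding reads and per reads outside U3, and Snora70 was −0.11 with all 12 libraries. With 1 library left out, Snora73b was −0.0408 to 0.32 and Snora81 −0.0654 to 0.81. The median of the genes without reads, 0.25, was −0.82 with all 12 libraries and 0.62 to 0.68 under the rescalings. Depth limits the results on Snora17 and Snora44, which rest on at most 19 and 8 reads in a library.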
